A study of Mus musculus with 12 samples.

Results

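Transcripts of 5 Krüppel-like factors, Klf2, Klf3, Klf4, Klf6 and Klf13, were followed through 4 dendritic cell populations of mouse bone marrow, as 5 of the 21754 genes counted. The genes were chosen by name, with earlier results of the same libraries known. Bulk SCRB-seq, which reads the 3′ ends of polyadenylated RNA with a barcode for each library, had been run on 12 libraries, 3 per population, of wild-type C57BL/6 mice that were healthy and untreated. Pre-cDCs, the precursors of conventional dendritic cells, had been sorted as Siglec-H-negative and B220-negative cells. Lo-lo and lo-hi precursors were Siglec-H-positive cells with low CCR9 and either low or high B220, and plasmacytoid dendritic cells (pDCs) had high CCR9 and high B220. All came from the lineage-negative Flt3+ CD11c+ compartment, and each library was a pool of sorted cells, in which fewer cells of a type and less RNA per cell cannot be told apart.

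Krüppel-like factors are transcription factors that bind GC-rich and CACCC sequences through zinc fingers at their carboxy terminus. Klf2 holds lymphocytes and monocytes in a quiescent state and drives genes of tissue egress and homing, and Klf4 is needed for inflammatory monocytes and for a part of the conventional dendritic cells of type 2. Klf6 is induced rapidly in activated myeloid cells, Klf13 acts in lymphocytes, and Klf3 is a repressor that recruits CtBP proteins.

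The promoters of Klf2 and Klf4 are shown because the transcripts of these 2 genes differed in direction along the populations. Each window spans 250 bases before to 50 bases after the annotated start (RefSeq, GRCm38.p6) and is written from 5′ to 3′ on the strand of the gene. Capitals mark GC boxes (GGGCGG on either strand) and the core letters of a MEF2 site (CTANNNNTAG). The Klf2 window lies at chr8:72318812-72319111 on the plus strand and the Klf4 window at chr4:55532426-55532725 on the minus strand.
Klf2: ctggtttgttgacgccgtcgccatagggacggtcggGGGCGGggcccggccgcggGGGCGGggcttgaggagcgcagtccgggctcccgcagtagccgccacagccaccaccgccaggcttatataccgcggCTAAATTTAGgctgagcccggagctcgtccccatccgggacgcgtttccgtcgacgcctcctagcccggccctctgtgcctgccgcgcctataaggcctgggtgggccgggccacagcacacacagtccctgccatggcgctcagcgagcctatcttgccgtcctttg
Klf4: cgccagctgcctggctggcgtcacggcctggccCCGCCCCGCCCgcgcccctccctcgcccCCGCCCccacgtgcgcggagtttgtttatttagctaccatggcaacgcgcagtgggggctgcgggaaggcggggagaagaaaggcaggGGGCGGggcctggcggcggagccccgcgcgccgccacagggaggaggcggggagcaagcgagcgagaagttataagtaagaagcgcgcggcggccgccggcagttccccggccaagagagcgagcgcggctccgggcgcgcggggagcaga
The Klf2 window held 2 GC boxes and 1 MEF2 core, whose first base lay 118 bases before the start. The Klf4 window held 4 GC boxes, 2 of which overlapped, and no MEF2 core. Among 32851 promoter windows of the same length, 35.7% held a GC box and 3.69% a MEF2 core. The windows of Klf3, Klf6 and Klf13 held 6, 1 and 3 GC boxes and no MEF2 core, and a CACCC box (CACCC on either strand), found in 57.5% of all windows, was matched 5 times in Klf3, once in each of Klf2 and Klf13, and not in Klf4 or Klf6. None of the 5 windows held a CArG box, the binding site of serum response factor, which 1.63% of all windows held. A match of letters is a description and not a measured site.

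The deposited labels and the population names used here disagree in part. Wells were given to populations by matching the order of 28 transcription factor transcripts in each well to the values published for the named samples, since 8 of the 12 wells carried the label of another population. Each named sample had 1 well in which none of the 378 pairs of factors had the opposite order, ties not counted. The next-best well had at least 7 pairs in the opposite order. Klf4 was 1 of the 28 factors, so its levels were used to place the wells and are given without a test. Without Klf4 the match, on 351 pairs, placed the same 12 of 12 wells. Klf2, Klf3, Klf6 and Klf13 had no part in it. The label and the match named the same population in 4 wells (pre-cDC number 1, lo-lo number 2, lo-hi number 2 and pDC number 3).

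Library totals ran from 1801463 to 5995971 counts, so 3 counts corresponded to 0.5 to 1.67 CPM by the raw total. All levels are CPM after TMM scaling, which corrects for library composition. The populations differed in their own markers, of which some factors had also served in the match. From pre-cDC to pDC, 8 of 8 pDC markers rose and 6 of 6 pre-cDC markers fell, and Ccr9, the chemokine receptor used in the sort, rose from between 21.6 and 44.6 CPM to between 397 and 520.2. The 4 libraries of number 3 stood apart. They held 40.2 to 58.6 CPM of the Y-linked Eif2s3y, against 0.886 to 3.47 in the 8 others, and 26.6 to 58.4 of Xist, against 218 to 596. The legend of the study speaks of 3 individual mice, and the number in a sample name was read as the mouse. Sex, mouse and any step shared by the libraries of 1 number cannot be told apart.

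Klf4 had its highest level in pre-cDCs and its lowest in pDCs. In pre-cDCs it measured 172, 203 and 182 CPM in the libraries numbered 1, 2 and 3. In lo-lo precursors the levels were 125, 134 and 159.9. In lo-hi precursors they were 33.3, 37.2 and 90.9, and in pDCs 12.4, 26.2 and 65.5. All 3 pre-cDC libraries lay above all 3 lo-lo libraries, and these above all 3 lo-hi libraries, whereas the ranges of lo-hi and pDC overlapped. The share of all genes separated in this way is not given here. The means were 185 ± 15.9, 139.5 ± 18.3, 53.8 ± 32.2 and 34.7 ± 27.5 CPM (SD, n = 3 each).

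Between lo-lo and lo-hi, the step at which B220 separates the sorted precursors, the fitted log2 difference of Klf4 was -1.41 ± 0.56 (SE). It was -0.41 ± 0.53 for lo-lo over pre-cDC and -0.68 ± 0.59 for pDC over lo-hi. In the fit the widest step changed on leaving out 1 library. Without pDC number 3 the difference of pDC over lo-hi was -1.49 and that of lo-hi over lo-lo -1.42. Without lo-hi number 3 they were -0.09 and -1.99. Within each number, lo-hi over lo-lo was the widest step, with -1.90, -1.85 and -0.81 for numbers 1, 2 and 3. The log2 differences of pDC over lo-hi were -1.42, -0.51 and -0.47, and those of lo-lo over pre-cDC -0.46, -0.60 and -0.18. Without the 4 libraries of number 3, lo-hi over lo-lo was -1.89 ± 0.25 and pDC over lo-hi -0.94 ± 0.26. From pre-cDC to pDC the fitted difference over all 12 libraries was -2.50 ± 0.58, a 5.64-fold lower level. The same order of the 4 populations was found within each number. The pDC library had 13.8 times less Klf4 than the pre-cDC library of number 1, 7.74 times less for number 2 and 2.77 times less for number 3. Without the 4 libraries of number 3, the log2 difference of pDC over pre-cDC was -3.36 ± 0.26. No test was made of these values, since they had helped to place the wells. Under the deposited labels Klf4 showed no such order, with means of 109.8 ± 70.3 CPM in the wells labelled pre-cDC and 105 ± 48.8 in those labelled pDC.

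**Figure D1:**
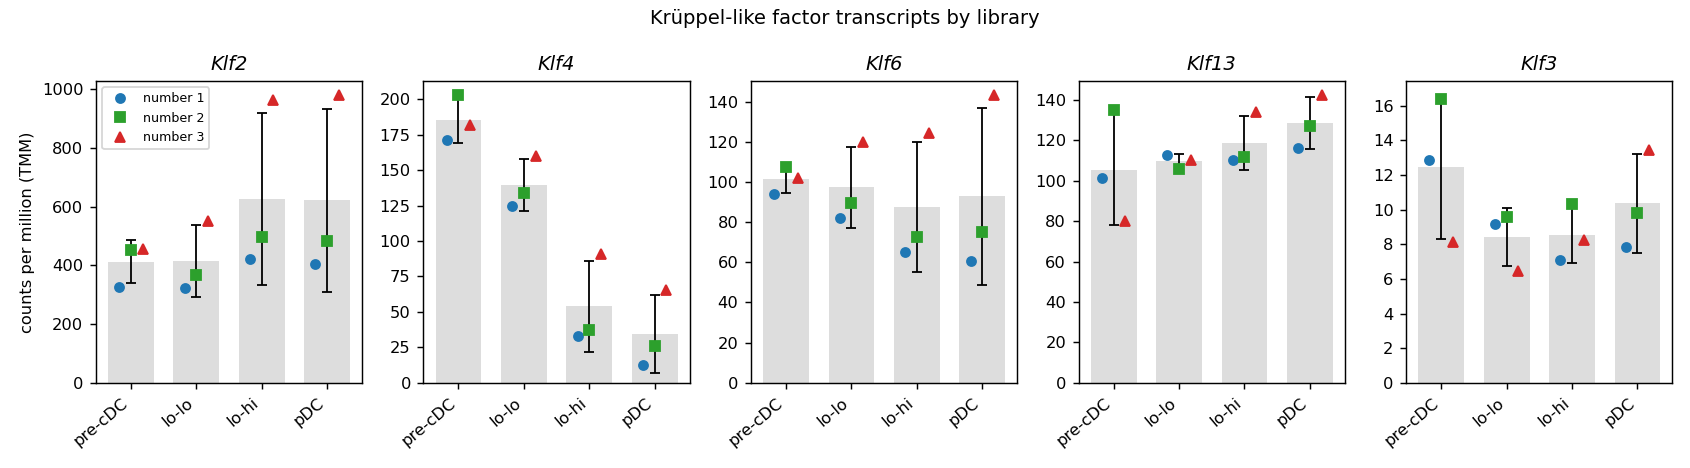
Levels of the 5 genes in CPM (TMM, linear axis from 0, a separate scale for each gene) in the 4 populations as matched. Grey bars are means of 3 libraries, error bars are SD, and points are libraries marked by number. Klf4 falls from a mean of 185 in pre-cDCs to 34.7 in pDCs, and the libraries of number 3 are highest for Klf2, Klf4 and Klf6 in lo-lo, lo-hi and pDC.

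Klf2, in contrast, was lower in pre-cDC and lo-lo than in lo-hi and pDC of the same mouse number. In pre-cDCs it measured 328, 452 and 457 CPM, and in lo-lo precursors 322, 367 and 553. In lo-hi precursors the levels were 423, 497 and 964, and in pDCs 406, 482 and 979.7. Number 3 held the highest level of each population, by a small margin in pre-cDCs and about double the others in lo-hi and pDC, so that the ranges of all neighbouring populations overlapped. The population means were 412 ± 73.0, 414 ± 122, 628 ± 293 and 623 ± 312 CPM (SD, n = 3). Klf2 therefore had 2 pairs of neighbours, pre-cDC with lo-lo and lo-hi with pDC, whose means differed far less than their spread.

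None of the pairwise comparisons of Klf2 passed the test of edgeR when libraries were taken as independent. The log2 difference was 0.59 ± 0.42 (SE) for pDC over pre-cDC (adjusted p = 0.340, quasi-likelihood test of edgeR), 0.60 ± 0.42 for lo-hi over lo-lo (adjusted p = 0.532) and 0.58 ± 0.42 for pDC over lo-lo (adjusted p = 0.404). These values depended on number 3, being 0.11 for pDC over pre-cDC and 0.10 for pDC over lo-lo without pDC number 3, and 0.15 for lo-hi over lo-lo without lo-hi number 3. On leaving out any 1 library they reached at most 0.79, 0.82 and 0.85. Without all 4 libraries of number 3, lo-hi over lo-lo was 0.41 ± 0.18 (adjusted p = 0.211 in edgeR). In that fit pDC over pre-cDC was 0.16 ± 0.18 (adjusted p = 0.596 in edgeR). With the number as a replicate block, which compares the populations within each mouse, the test for any difference between the 4 populations passed the threshold of 0.01 (adjusted p = 0.00202 in edgeR). In that fit Klf2 was 0.53 ± 0.15 higher on the log2 scale in pDC than in lo-lo (adjusted p = 0.0084 in edgeR), and the adjusted p was 0.0107 for pDC over pre-cDC, 0.0112 for lo-hi over pre-cDC and 0.0123 for lo-hi over lo-lo. Klf2 was the 1 tested member called, where the blocked fit called 24.4% of all genes for any difference and 17.0% for pDC over lo-lo.

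Within each number, Klf2 was higher in lo-hi than in lo-lo, by 1.31, 1.35 and 1.74 times for numbers 1, 2 and 3. The pDC library exceeded the lo-lo library by 1.26, 1.31 and 1.77 times, and the pre-cDC library by 1.24, 1.07 and 2.15 times. All 3 mice thus moved in the same direction, with the widest change in number 3. Without the 4 libraries of number 3 the log2 difference of pDC over lo-lo was 0.33 ± 0.18 (adjusted p = 0.221 in edgeR).

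**Figure D2:**
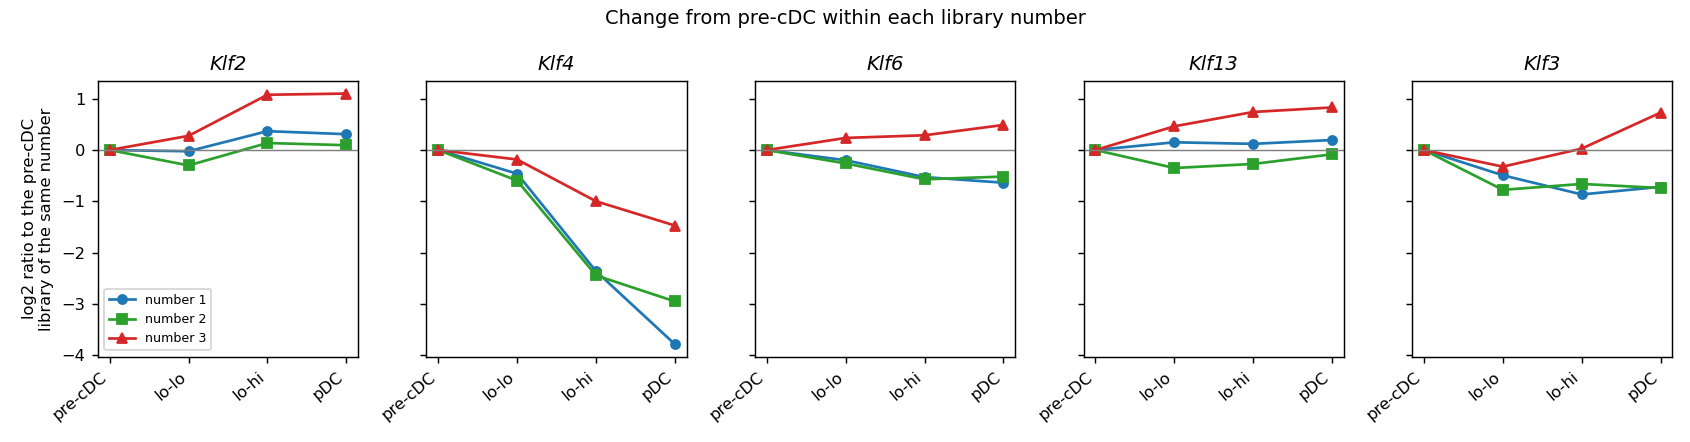
Log2 ratio of each library to the pre-cDC library of the same number, for the 5 genes over the 4 populations, with 1 line for each number and a shared vertical axis. The Klf4 lines fall in all 3 numbers, to -3.79, -2.95 and -1.47 in pDC, whereas Klf6 ends below its pre-cDC level in numbers 1 and 2 and above it in number 3.

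Klf6 differed in direction between mouse numbers, as did Klf3 and Klf13. In pre-cDCs its level was 94.3, 108 and 102 CPM, and in pDCs 60.6, 75.2 and 143. In lo-lo precursors it was 82.1, 89.8 and 120.1, and in lo-hi precursors 65.4, 72.4 and 125. From pre-cDC to pDC Klf6 was lower by 0.64 and 0.52 on the log2 scale within numbers 1 and 2, and higher by 0.49 within number 3. The pooled log2 difference was -0.14 ± 0.31 (adjusted p = 0.778 in edgeR), and without the libraries of number 3 it was -0.61 ± 0.19 (adjusted p = 0.0219 in edgeR, above the threshold of 0.01). The difference between number 3 and the others was not tested, as number 3 held 1 library of each population.

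Klf13 kept a narrow range. Its mean was 106 ± 27.6 CPM in pre-cDC, 109.6 ± 3.56 in lo-lo, 119 ± 13.2 in lo-hi and 129 ± 13.1 in pDC (SD, n = 3). The lowest library was pre-cDC number 3 at 80.1 and the highest pDC number 3 at 142. The pDC libraries measured 116, 127 and 142 and the lo-lo libraries 113, 106 and 110.3, and the ranges of pDC and pre-cDC overlapped. Neither pDC over lo-lo nor pDC over pre-cDC passed the test. Their log2 differences were 0.23 ± 0.17 (adjusted p = 0.392 in edgeR) and 0.29 ± 0.17 (adjusted p = 0.212 in edgeR). Within numbers 1, 2 and 3, pDC over pre-cDC was 0.20, -0.08 and 0.83 on the log2 scale, and without the libraries of number 3 it was 0.01.

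Klf3 was the most weakly covered of the 5 genes, with 15 to 46 counts in a library. It measured 12.9, 16.4 and 8.11 CPM in pre-cDCs and 9.15, 9.56 and 6.48 in lo-lo precursors. Levels were 7.07, 10.3 and 8.27 in lo-hi precursors and 7.83, 9.79 and 13.4 in pDCs. Each lo-lo library was below the pre-cDC library of its number, with a log2 difference of -0.56 ± 0.28 that did not pass (adjusted p = 0.302 in edgeR). From pre-cDC to pDC Klf3 was lower by 0.72 and 0.74 on the log2 scale within numbers 1 and 2 and higher by 0.73 within number 3, and without the libraries of number 3 the log2 difference was -0.76 ± 0.29 (adjusted p = 0.0603 in edgeR). Genes on the opposite strand overlap Klf3 (Gm20033, 42 counts over the 12 libraries beside 364 of Klf3) and Klf13 (Gm27252, 32 counts beside 4415), and the strand setting of the counting was not given in the sources used here.

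Across the 4 members that could be tested (Klf2, Klf3, Klf6 and Klf13), 0 were called at an adjusted p of 0.01 in edgeR in any of the 6 pairwise comparisons or for any difference, without the block. None of them had an unadjusted p under 0.05 in these comparisons, and DESeq2 called 0 as well. Of all genes tested, the same fit called 19.9% for any difference between the populations. By pair, it called 3.16% for lo-lo over pre-cDC, 5.17% for lo-hi over lo-lo and 0.961% for pDC over lo-hi. It called 21.7% for pDC over pre-cDC, of which 11.4% of all genes were higher and 10.4% lower, 13.8% for pDC over lo-lo and 13.1% for lo-hi over pre-cDC. With the deposited labels in place of the match, edgeR called 0% of all genes for any difference, with 166 of 15293 genes at an unadjusted p under 0.05. Under those labels the mean of Klf2 was 832 ± 242 CPM in the wells labelled pDC and 358 ± 56.6 in those labelled pre-cDC, and DESeq2 called Klf2. Of the 3 wells labelled pDC, all belonged to number 3.

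The high values of number 3 were shared with some rapidly induced genes and with many proliferation genes. Immediate early genes such as Fos and Jun are transcribed within minutes of a stimulus, tissue dissociation included. Klf2 was highest in number 3 in all 4 populations, and Klf4 and Klf6 in lo-lo, lo-hi and pDC. Of 23 immediate early and dissociation genes tested, 6 (Fos, Fosb, Jun, Ier2, Dusp1 and Ppp1r15a, named after their values were seen) were highest in number 3 in all 4 populations, a share of 26.1% beside 1.67% of all genes tested. In pDCs, Fos measured 84.1, 100.1 and 174 CPM, and Jun 204, 289 and 529. Of 14 proliferation genes, 9, 10, 12 and 10 were highest in number 3, in the order from pre-cDC to pDC. Of the 23 early genes 14, 10, 10 and 12 were, and of all genes tested 33.3% to 35.9%. The part of either group in the levels of Klf2, Klf4 and Klf6 was not tested.

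The difference of number 3 from the other numbers changed over the populations, upwards from pre-cDC to pDC in all 5 members. The share of all genes with a change in this direction is not given here. On a log2 scale of CPM plus 1, number 3 exceeded the mean of numbers 1 and 2 for Klf2 by 0.25 in pre-cDC, 0.68 in lo-lo, 1.07 in lo-hi and 1.14 in pDC. For Klf4 the excess was -0.04, 0.30, 1.34 and 1.80, and for Klf6 it was 0.02, 0.48, 0.85 and 1.07. For Klf3 it ran from a deficit to an excess, with -0.77, -0.47, -0.05 and 0.57, and for Klf13 it was -0.54, 0.01, 0.27 and 0.22. The immediate early genes as a list did not share this order, with a median of 0.40, 0.17, 0.08 and 0.19. Of them, named after their values were seen, Fosb had 0.44, 0.69, 0.99 and 1.22, and Jund -0.88, -0.55, 0.30 and 0.88. Dusp1 had 1.05, 0.96, 0.63 and 0.76, and Egr1 0.61, -0.06, -0.10 and -1.12. Many other lists also changed upwards from pre-cDC to pDC, so the direction was not particular to the members. The 12 tested relatives of the KLF and SP family had list medians of -0.28, 0.03, 0.17 and 0.21. The median of 9 family cofactors went from -0.20 to 0.20. That of 10 genes upstream of Klf2 and Klf4 went from -0.32 to 0.28. The medians of 11 monocyte and cDC2 genes and 8 pDC markers went from -0.25 to 0.02 and from -0.45 to -0.08. Those of 8 B lymphoid genes and 6 T and NK genes went from -0.39 to -0.01 and from -0.97 to -0.14. The granulocyte, erythroid and platelet medians, given below, were also higher in pDC than in pre-cDC. The medians of 14 proliferation genes and 9 cell cycle regulators went downwards, from 0.42 to 0.19 and from 0.27 to 0.01. Those of 6 pre-cDC markers and 8 monocyte and macrophage genes also went downwards, from 0.28 to -0.05 and from 0.04 to -0.02. The median over all genes tested lay between -0.02 and 0.004 in the 4 populations. Granulocyte genes were lower in number 3 in the median of their list (log2 differences of -1.14, -0.67, -0.67 and -0.80). Their summed levels were 4439, 5677, 9890 and 3258 CPM in the libraries of number 3, in the order from pre-cDC to pDC. The others had ranges of 10591 to 11522, 5327 to 17763, 12404 to 20678 and 5287 to 6620, so that the lo-lo library of number 3 lay within the range. Erythroid genes were also lower in number 3 in the median of their list (log2 differences of -1.12, -0.39, -0.30 and -0.85), and so were platelet genes (-1.86, -1.79, -0.05 and -0.59). The part of these transcripts was not tested.

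**Figure D3:**
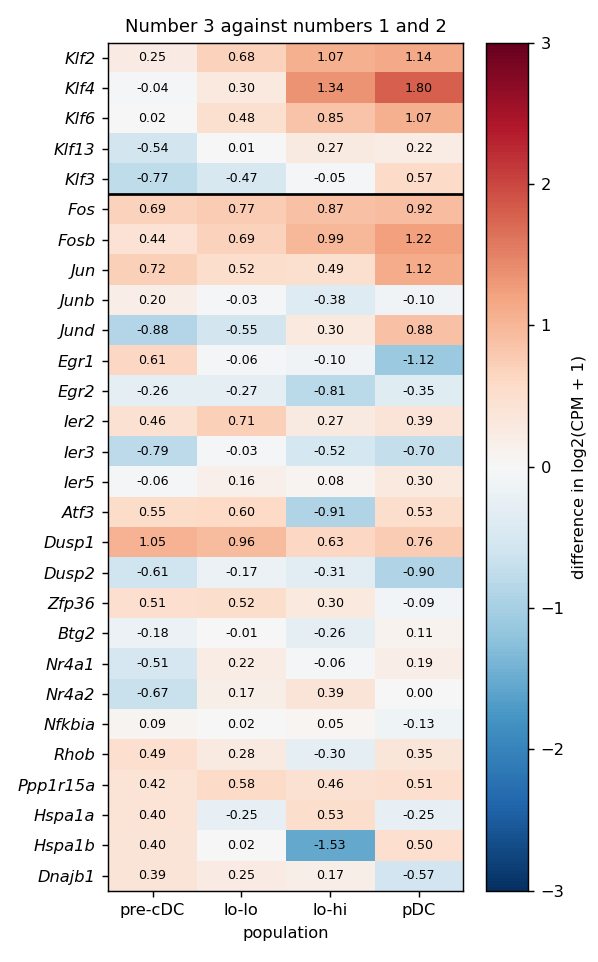
Difference of the library of number 3 from the mean of numbers 1 and 2 in log2(CPM + 1), for the 5 members (above the line) and 23 immediate early and dissociation genes, by population. Red cells are higher in number 3. The value of each member is higher in pDC than in pre-cDC, a direction whose share over all genes is not given here. In pDC the values are 1.14, 1.80 and 1.07 for Klf2, Klf4 and Klf6. The early genes follow no common order.

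Among other genes of the KLF and SP family, Klf10 and Klf7 changed in opposite directions. Of 16 listed relatives, 12 passed the filter of a mean count of 1, Klf12 and Klf17 were below it, and Klf14 and Klf15 were not analysed here. Of the 12, 4 were called for any difference (Klf10, Klf7, Klf9 and Sp4), and from pre-cDC to pDC 3 rose and 2 fell, with a median log2 difference of -0.58 beside 0.05 over all genes. Klf10, a factor induced by TGF-β, measured 99.0, 91.7 and 126 CPM in pre-cDCs, 45.8, 40.3 and 52.9 in lo-lo, 28.9, 18.1 and 26.5 in lo-hi, and 24.0, 25.3 and 19.1 in pDCs. It fell by 2.20 ± 0.19 on the log2 scale from pre-cDC to pDC (adjusted p = 1.46e-09 in edgeR).

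Klf10 and Klf4 thus both declined towards pDC. For Klf10 the log2 difference was -1.18 ± 0.18 for lo-lo over pre-cDC (adjusted p = 9.55e-05 in edgeR), -0.90 ± 0.20 for lo-hi over lo-lo and -0.12 ± 0.20 for pDC over lo-hi. Klf7 rose from 16.7, 14.4 and 10.8 CPM in pre-cDCs to 25.5, 38.9 and 43.4 in pDCs (log2 difference 1.33 ± 0.21, adjusted p = 2.32e-05 in edgeR). Sp4 rose by 1.37 ± 0.31 (adjusted p = 0.00122 in edgeR) and Sp3 by 0.69 ± 0.19 (adjusted p = 0.00594 in edgeR). The call of Sp4 was lost without pDC number 2 (1.20, adjusted p = 0.0117 in edgeR) or pre-cDC number 3 (1.20, adjusted p = 0.0119), and that of Sp3 under most alternatives, down to 0.34 without the libraries of number 3. Klf9 was called lower (adjusted p = 0.00171 in edgeR, and 0.0128 without pre-cDC number 1), from 1.98 to 2.93 CPM in pre-cDCs to at most 0.34 in pDCs, where each library held fewer than 3 counts.

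The 7 other relatives that passed the filter were not called from pre-cDC to pDC. Sp1, a broadly expressed activator of GC boxes, measured 35.8 to 59.0 CPM over the 12 libraries, and its log2 difference was 0.31 ± 0.17. Klf8, Klf11, Klf16 and Sp2 had log2 differences of -1.19, -0.70, -0.60 and -0.58. Klf1, the erythroid factor, and Klf5 did not exceed 5.32 CPM in any library.

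**Figure D4:**
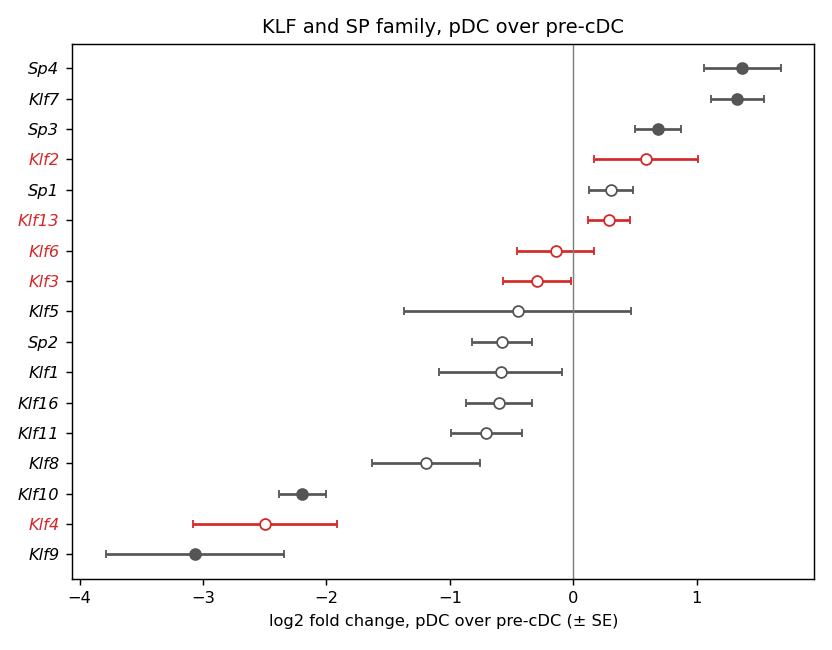
Log2 fold change from pre-cDC to pDC (bars are SE) for the 5 members (red) and 12 relatives (grey) that passed the filter. Filled points passed an adjusted p of 0.01 in edgeR; Klf4, at -2.50, was not tested. Klf10 lies at -2.20 and Klf7 at 1.33, the value of Klf9 rests on pDC libraries with fewer than 3 counts, and Klf13 and Klf6 lie near 0.

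Of 10 genes known to act upstream of Klf2 and Klf4, 5 rose from pre-cDC to pDC and none fell. The kinases MEK5 and ERK5 activate MEF2 factors, which induce Klf2, FOXO1 also induces it, and the ubiquitin ligase FBXW7 marks the Klf2 protein for degradation. For any difference between the populations 4 of them were called, and the median log2 difference from pre-cDC to pDC was 0.78. Mef2c measured 181, 196 and 158 CPM in pre-cDCs and 326, 441 and 450.3 in pDCs, and rose by 1.19 ± 0.16 (adjusted p = 1.67e-06 in edgeR). Mef2a rose by 1.31 ± 0.19, Fbxw7 by 1.18 ± 0.22 and Foxo1 by 1.09 ± 0.21, and Wwp1, another ubiquitin ligase, was the other gene that rose. Without the libraries of number 3 the calls of Fbxw7 (0.79, adjusted p = 0.0157 in edgeR) and Foxo1 (0.74, adjusted p = 0.0298) were lost. The 2 kinase genes, Map2k5 and Mapk7, were not called in either test, with log2 differences of 0.01 and 0.30 from pre-cDC to pDC, and neither were Foxo3 (0.48), Smurf1 (0.22) and Mef2d (-0.28). The only MEF2 core among the member promoters stood in that of Klf2, as printed above. A link of any of these genes to the level of Klf2 was not tested.

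Of 5 homing and egress genes tied to Klf2 in lymphocytes, 4 passed the filter. Of these 1, Itgb7, was called for any difference and for pDC over pre-cDC, beside 19.9% and 21.7% of all genes tested. Itgb7, an integrin chain of gut homing that depends on Klf2 in lymphocytes, fell from 287, 236 and 332 CPM in pre-cDCs to 144, 149 and 135 in pDCs (adjusted p = 9.81e-06 in edgeR). S1pr1, the receptor for marrow and lymph node egress, reached at most 1.10 CPM and was not tested. S1pr4, a related receptor, measured 42.5 to 77.3 CPM over the 12 libraries and was not called, and neither were Ccr7 and Cd69.

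Monocyte and cDC2 genes tied to Klf4 fell in most cases from pre-cDC to pDC. Of 11 genes, 8 fell and 2 rose, with a median log2 difference of -1.61. Csf1r, the receptor for M-CSF, measured 95.4, 67.4 and 107 CPM in pre-cDCs and 6.81, 8.21 and 6.94 in pDCs, and fell by 3.63 ± 0.22 on the log2 scale (adjusted p = 8.38e-12 in edgeR). Cx3cr1 fell by 1.61 ± 0.16 and Ccr2, the receptor for monocyte egress, by 1.85 ± 0.22. Mgl2, a lectin of type 2 dendritic cells, went the other way, from at most 3.47 CPM in pre-cDCs to between 11.3 and 22.5 in pDCs. Csf1r and Cx3cr1 were also among the pre-cDC markers. A second list of 8 monocyte genes, which shared Ly6c2, Ccr2 and Cd14 with the first, had 6 genes lower in pDC and none higher. Its summed levels were 4541 to 4880 CPM in pre-cDCs and 3081 to 4045 in pDCs. The part of monocyte genes in the level of Klf4 was not tested.

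Klf4 restrains the cell cycle in many tissues, and here pre-cDC and lo-lo, with the higher levels of Klf4, also held the higher levels of proliferation transcripts. All 14 of 14 proliferation genes were lower in pDC than in pre-cDC (median log2 difference -2.49), and all 14 were lower in lo-hi than in lo-lo. Top2a measured 401, 448 and 337 CPM in pre-cDCs, 482, 558 and 471 in lo-lo, 162, 167 and 225 in lo-hi and 56.4, 58.8 and 86.3 in pDCs. Among 9 tested cell cycle regulators that KLFs are known to control, 5 fell and 1 rose from pre-cDC to pDC. Ccnd2 fell by 1.28 ± 0.18, Ccnd3 by 1.44 ± 0.18, Ccne1 by 2.53 ± 0.27 and Myc by 3.64 ± 0.35. The inhibitor Cdkn1a, an activated target of Klf4 in other cells, also fell, by 2.09 ± 0.39, and Ccnd1 rose by 1.44 ± 0.17; these 2 were named after their values were seen.

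Of 9 tested cofactor genes of the family, 1 was called for any difference, beside 19.9% of all genes. Sap30, a subunit of the Sin3 complex through which Klf10 and Klf13 repress, fell by 1.15 ± 0.25 on the log2 scale from pre-cDC to pDC (adjusted p = 0.000831 in edgeR, and 0.0112 without pre-cDC number 1). Hdac1, Hdac2 and Sin3a were not called in that comparison, and Ctbp2 was below the filter.

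The immediate early list as a whole also differed between the populations. Of its 23 tested genes, 11 fell and 2 rose from pre-cDC to pDC, with a median log2 difference of -1.24. Ier2 fell by 2.58 ± 0.21, Junb by 1.44 ± 0.17 and the heat shock gene Hspa1a by 3.43 ± 0.38. Btg2, an antiproliferative gene, rose by 1.42 ± 0.15, from 233, 282 and 226 CPM to 599, 686 and 689.8. Klf4, which is itself inducible, had the direction of the majority and Klf2 did not.

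The genes whose levels ran most closely with each member were found over the 12 libraries among 7761 genes with a mean of at least 10 CPM. These correlations are descriptions, since the libraries share populations, numbers and depth. For Klf4 they were Plekhg3, the condensin subunit Ncapd2 and the histone gene Hist1h2bj (Pearson r = 0.96, 0.95 and 0.95). For Klf6 they were the histone gene H3f3a, Fosb and Ttc9c (r = 0.90, 0.88 and 0.86). For Klf2 they were Gm6023, the sorting nexin Snx9 and Gm7964 (r = 0.87, 0.85 and 0.85), for Klf3 Hps3, Mndal and Neat1 (r = 0.89, 0.86 and 0.85), and for Klf13 Asxl2, Gm26522 and Klhl18 (r = 0.90, 0.89 and 0.89). Among the members themselves, r was 0.65 for Klf2 with Klf6, 0.66 for Klf4 with Klf6 and -0.08 for Klf2 with Klf4.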

How the data were processed

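Bulk SCRB-seq libraries were made by the authors, who processed the reads with zUMIs and STAR on the mouse genome (mm10) with Ensembl genes of GRCm38, and deposited a table of raw counts, whole numbers by gene and well. Whether the counts are reads or molecular identifiers was not given in the sources used here, and the mean-count filter that the methods describe had not been applied to the file. Columns follow the match of wells to the published values of named samples and not the deposited labels. The members, the gene lists and this grouping were chosen with earlier results of these data known.

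From the counts, a mean count of 1 or more was required (15293 genes, with 6461 left out). TMM scaling preceded quasi-likelihood testing (edgeR 4.0.16, R 4.3.3, robust, all libraries together, no covariates), with Benjamini-Hochberg adjustment over all genes and a threshold of 0.01. The alternatives were the deposited labels, DESeq2 1.42.0 and its size factors, other filters and thresholds, the replicate block, the libraries of each pair alone, and leaving out libraries. The edgeR fit without the block was tested on simulated counts for lo-lo over pre-cDC, and the blocked fit was not. P-values measure the spread between libraries within populations, estimated over the 4 populations together and with information shared between genes. With the block, they measure the spread left after the number is taken into account. The legend names 3 individual mice, hence the pairing by number. Deviations from population means correlated on average by 0.13 (-0.18 to 0.35) over 18 pairs of the same number, of which 15 exceeded 0.1, and by -0.07 over 36 pairs of different numbers. Replicates differed by more than counting noise (chi-square at least 4.10 times its degrees of freedom), so none was counted as a repeat.

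Named genes were the 5 members, all tested relatives, up to 4 genes of each other list with the smallest p for any difference, and the 3 genes of highest Pearson r per member. Promoters came from RefSeq (GRCm38.p6) and were found for 5 of 5 members. The other lists, of B lymphoid, T and NK, erythroid and platelet genes, are given in the closing section. One gene of the homing list is not reported here, and that list's counts are over the other genes.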

Additional observations from a re-analysis of the deposited data

How the results depend on the processing

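The count of tested members called was 0 in all 7 tests and stayed 0 under every alternative except where Klf2 was called. With the replicate block the count was 1 for any difference and 1 for pDC over lo-lo, and with DESeq2 on the deposited labels, added after seeing the data, it was 1 for any difference and 1 for pDC over pre-cDC. No other call of a member changed with the block. With the deposited labels the log2 difference of Klf6 for pDC over pre-cDC turned to 0.68 (0.67 with the label number as a replicate block, 0.68 in DESeq2), and that of Klf3 for lo-lo over pre-cDC to 0.19 (0.17 and 0.19). Klf6 also turned to 0.024 and 0.00579 without the libraries of number 1 or 2, its range on leaving out 1 library being -0.58 to 0.063. Klf4 for pDC over pre-cDC ranged from -3.31 to -2.08 on leaving out 1 library, and was -0.05 with the deposited labels and -1.39 in the 4 wells where label and match are the same. From pre-cDC to pDC, Klf7 and Klf10 were called in 22 of 22 alternatives that kept the matched populations, Klf9 in 17 of 21, Sp4 in 18 of 22 and Sp3 in 9 of 22. With Spearman's rho, 1, 1, 0, 3 and 1 of the 3 genes most like Klf2, Klf3, Klf4, Klf6 and Klf13 were shared. With 15 to 46 counts, Klf3 is limited by depth. Over all genes, the count of calls for pDC over pre-cDC was 3324, and 3882 with the block, 2982 in DESeq2 and 4825 at a threshold of 0.05. The count for lo-lo over pre-cDC was 483, and 743 with the block, 733 without the filter and 907 at 0.05; that for pDC over lo-hi was 147, and 346, 344 and 327; that for lo-hi over lo-lo was 790, and 1191 in the 6 libraries alone and 1321 at 0.05. On leaving out 1 library these 3 counts ranged from 280 to 662, 65 to 213 and 381 to 945, lowest without pre-cDC number 1, lo-hi number 3 and lo-hi number 1, and without the 4 libraries of number 1 they were 174, 27 and 221 (2105 for pDC over pre-cDC). With the deposited labels edgeR called 0 genes in every comparison.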

Other observations

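Transcripts of other marrow cells were present, and those of red cells and granulocytes lay above every member. Hba-a2 reached 7629 CPM and S100a8 9015, beside at most 979.7 for Klf2. The summed level of 8 B lymphoid genes was 68.6 to 107 CPM in pre-cDCs, 70.3 to 99.2 in lo-lo, 112 to 153 in lo-hi and 105 to 129 in pDCs, and Cd79b was the 1 gene of them called for any difference in edgeR (adjusted p = 0.00173). The 7 erythroid genes summed to 4685 to 18425 CPM in pre-cDCs and 6766 to 14217 in pDCs, 5 platelet genes to 23.3 to 109 and 12.1 to 24.4, and 6 T and NK genes to 17.6 to 60.3 and 11.7 to 18.7. None of the granulocyte, erythroid, platelet, or T and NK genes was called for any difference in edgeR without the block, and with the replicate block 5 of 9, 0 of 7, 1 of 5 and 1 of 6 were.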
